A study of Mus musculus with 10 samples.

Results

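The transcripts described here are 7 mouse messenger RNAs known as substrates of IRE1-dependent decay: Bloc1s1, Scara3, Hgsnat, Pmp22, Pdgfrb, Col6a1 and Sparc. They were chosen by name, as transcripts described as cleaved by IRE1 in mouse cells, and are 7 of the 48709 genes counted in each library. They were measured in primary hippocampal neurons, cells taken from the mouse hippocampus and grown for 10 days in vitro. Polyadenylated RNA was sequenced from 6 libraries of cultures given tunicamycin at 2 ug/mL for 6 h and from 4 libraries of cultures given the solvent DMSO for the same 6 h. No genotype, strain or animal age was given in the labels. Whether the libraries within a group stem from independent cultures is not stated, and the spread behind each p-value may be technical. No sorting of neurons is named in the labels. Each library carries 1 of 3 sequencing lanes in its deposited file's name, and each lane holds both groups.

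IRE1, encoded by Ern1, is a sensor in the membrane of the endoplasmic reticulum (ER) with a kinase and an RNase domain. When unfolded proteins accumulate, as after tunicamycin blocks N-linked glycosylation, IRE1 cuts Xbp1 messenger RNA at a pair of hairpin loops, and the ends are joined into the form that encodes the active XBP1 transcription factor. The same RNase also cuts other transcripts, many of them at the ER membrane, and the fragments are removed by the exosome and by the exonuclease XRN1. This is called regulated IRE1-dependent decay. The loop that IRE1 cuts carries the letters CNGCAGN, where N is any base. Counts per gene measure how much of a transcript is present: cleavage and lower transcription cannot be told apart by them.

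Before the levels, the loops themselves are shown, because IRE1 recognises such loops. The motif CNGCAGN was searched on the sense strand of 1 reference transcript per gene (GENCODE M21, GRCm38). All 7 transcripts held it, as did 97.4% of the 13876 protein-coding transcripts of tested genes, so its presence does not set them apart. The shorter CTGCAG, which overlaps it, was also in all 7 transcripts and in 86.5% of all. A match was called closed when its 7 bases were the loop of a hairpin with at least 4 base pairs directly beside it, counting G-U pairs. Closed loops were found in 3 of the 7 transcripts (Bloc1s1, Scara3 and Pmp22) and in 14.1% of all transcripts. With a stem of at least 5 base pairs, Scara3 remained and the share of all transcripts was 5.90%. The sites follow, 5′ to 3′ on the transcript strand, with the 7-base loop in capitals. The search found the pair of loops in Xbp1, whose cutting by IRE1 is well known, and they are given as the pattern to compare with. Hgsnat had no closed loop, and its best match, with 3 base pairs, is shown for contrast.
Xbp1 loop a: tctgctgagtCCGCAGCactcagacta
Xbp1 loop b: atgtgcacctCTGCAGCaggtgcaggc
Bloc1s1: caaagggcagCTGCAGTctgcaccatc
Scara3: cgcgggggccCTGCAGAggcccgcgca
Pmp22: gagcgaatggCTGCAGTctgtccaggc
Hgsnat: ccctggtgtcCTGCAGCggttgggagt

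The loops of Xbp1 have stems of 6 and 7 base pairs and lie in coding sequence of exon 4, at chr11:5524276-5524282 and chr11:5524302-5524308 on the plus strand. The Bloc1s1 loop has 4 base pairs and lies in the coding part of exon 4, the last exon, at chr10:128920011-128920017 on the minus strand, which is base 447 of a 550-base transcript. Among 175 transcripts of like length (0.8 to 1.25 times), 3.43% held a closed loop. The Scara3 loop has 5 base pairs and lies in the 5′ UTR in exon 1, at chr14:65953522-65953528 on the minus strand, and 14.9% of 3971 transcripts of like length held a closed loop. The Pmp22 loop has 4 base pairs and lies in the coding part of exon 4, at chr11:63151124-63151130 on the plus strand, and the share was 8.19% of 2516 transcripts of like length. The unclosed Hgsnat match lies in the coding part of exon 11, at chr8:25955751-25955757 on the minus strand. Hgsnat, Pdgfrb, Col6a1 and Sparc had 4, 11, 8 and 4 unclosed matches. A match describes letters in a reference transcript. It does not show that the site was cut in these cultures.

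Transcripts of the ER stress response were high in the treated libraries. Hspa5, the main ER chaperone, which binds the stress sensors, was at 3211 ± 150 CPM with tunicamycin (SD, n = 6) and 613 ± 44.6 CPM with DMSO (SD, n = 4), where CPM is counts scaled to 1e6 per library. Ern1 itself was at 34.4 ± 1.87 CPM with tunicamycin and 18.5 ± 1.33 CPM with DMSO, a log2 fold change of 0.89 ± 0.05 (SE; edgeR quasi-likelihood test, Benjamini-Hochberg adjusted p = 3.23e-12). Xbp1 was at 237 ± 4.85 CPM with tunicamycin and 96.4 ± 5.72 CPM with DMSO, a log2 fold change of 1.29 ± 0.04, at the gene level, where cut and joined forms are counted together. Totals were 21055289 to 29234887 counts per library, and 15660 genes were tested. The cultures expressed all 10 neuron markers that were looked up, with a sum of 6492 to 6844 CPM with tunicamycin and 7699 to 8167 CPM with DMSO. They also held astrocyte markers (sum of 10 genes 2212 to 2449 CPM with tunicamycin and 3229 to 3626 CPM with DMSO), fibroblast markers (sum of 6 genes 242 to 371 CPM with tunicamycin and 177 to 317 CPM with DMSO) and mural cell markers (sum of 9 genes 31.3 to 54.7 CPM with tunicamycin and 41.1 to 108 CPM with DMSO). Within the fibroblast sum Fn1 alone was at 168 ± 24.5 CPM with tunicamycin and 70.1 ± 13.1 CPM with DMSO, and no other gene of that list was called higher. In whole cultures, fewer cells of a type and less RNA per cell cannot be told apart.

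The 7 substrates did not move as a block. Scara3, Pmp22, Bloc1s1 and Hgsnat fell, and Sparc, Col6a1 and Pdgfrb did not pass the test. All 7 passed the filter on low counts. The edgeR test called 4 of 7 lower and none higher at an adjusted p under 0.05, against 64.3% of all tested genes in either direction, 32.5% lower and 31.8% higher. In those 4, every tunicamycin library was below every DMSO library in CPM, as it was for 23.9% of all genes. For none of the 7 was every tunicamycin library above, as it was for 27.0% of all genes. The median log2 fold change was -0.43 over the 7 substrates and -0.02 over all tested genes. The authors' deposited table of downregulated genes lists the same 4 genes, with log2 fold changes from -1.84 for Scara3 to -0.43 for Hgsnat. It lists neither Sparc, Col6a1 nor Pdgfrb.

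**Figure D1:**
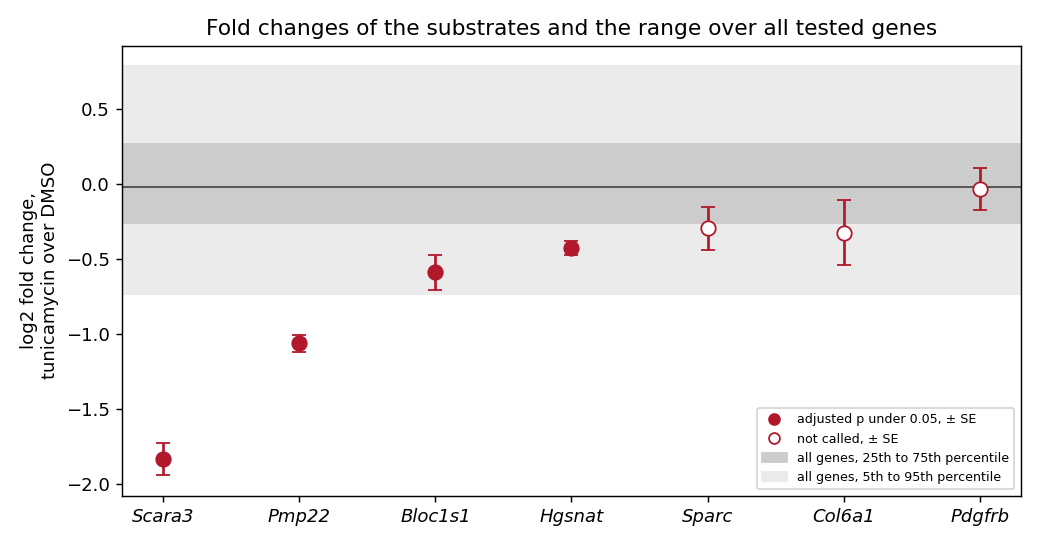
Log2 fold change of each substrate, tunicamycin over DMSO, with its standard error, from the edgeR fit of all 10 libraries. Filled points are the 4 called genes, from -1.83 for Scara3 to -0.43 for Hgsnat, and grey bands give the spread of all 15660 tested genes, whose 5th to 95th percentiles run from -0.74 to 0.78.

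Scara3 encodes a membrane protein of the class A scavenger receptors that is described as protecting cells from oxidative damage (ENSMUSG00000034463, chromosome 14, 65919394 to 65953935, GRCm38). Its level was 2.23 to 2.59 CPM, with a median of 2.41 CPM, in the 6 tunicamycin libraries. In the 4 DMSO libraries it was 9.84, 6.84, 8.17 and 9.47 CPM. The groups lay far apart, and the treated libraries were nearly level with each other. Counts were 47 to 68 reads with tunicamycin and 177 to 227 with DMSO, so counting alone gives an error of 6.64% to 14.6% of a value. This is a log2 fold change of -1.83 ± 0.11 (SE; adjusted p = 1.99e-12, edgeR), or 28.1% of the DMSO level. Only 29 of the 15660 tested genes had a lower log2 fold change. Within sequencing lanes 1, 2 and 3 the difference in mean log2 CPM was -1.73, -1.77 and -1.95.

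Pmp22 encodes a tetraspan glycoprotein of the plasma membrane, best known from the myelin of peripheral nerve (ENSMUSG00000018217, chromosome 11, 63128982 to 63159547). It was at 10.97 to 12.3 CPM, with a median of 11.3 CPM, in tunicamycin libraries, against 25.9, 24.1, 23.5 and 21.7 CPM in DMSO libraries. The groups did not overlap, and the lowest DMSO library was well above the highest treated one. It fell by 1.06 ± 0.06 on the log2 scale (SE; adjusted p = 3.49e-13 in the edgeR test), to 47.9% of the DMSO level. The lanes gave -1.12, -1.01 and -0.98.

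Bloc1s1 encodes a small subunit shared by BLOC-1 and BORC, complexes that act in the making and the positioning of endosomes and lysosomes, and is the substrate most often used as a readout of IRE1-dependent decay (ENSMUSG00000090247, chromosome 10, 128917882 to 128924035). It was at 2.52 to 4.27 CPM, with a median of 3.43 CPM, in tunicamycin libraries, against 5.68, 4.81, 5.07 and 5.26 CPM in DMSO libraries. The groups did not overlap, but the gap between the highest treated and the lowest DMSO library was small. Counts were 60 to 115 reads with tunicamycin and 110 to 131 with DMSO, with a counting error of 8.74% to 12.9%. The fit gave a log2 fold change of -0.59 ± 0.12 (SE; adjusted p = 0.000125, edgeR), or 66.4% of the DMSO level. The lanes gave -0.77, -0.46 and -0.57.

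The Bloc1s1 counts are uncertain in 1 respect. In GENCODE M21, 55.9% of its exonic bases are also exonic in the neighbouring gene Rdh5, a retinol dehydrogenase. In the main Bloc1s1 transcript the 150 bases of exon 1 are free of Rdh5. All 73 bases of exon 2, all 133 of exon 3 and 160 of the 194 of exon 4 are shared, and the loop printed above lies in that shared stretch. How reads in shared bases were counted, and from which annotation release, is not given in the sources used here. Rdh5 was at 1.62 ± 0.19 CPM with tunicamycin (SD, n = 6) and 1.96 ± 0.45 CPM with DMSO (SD, n = 4), and did not pass the test (log2 fold change -0.30 ± 0.16, edgeR adjusted p = 0.104). The part of this overlap in the Bloc1s1 result was not tested. None of the other 6 substrates has an exonic base shared with another annotated gene.

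Hgsnat encodes the lysosomal membrane enzyme that acetylates heparan sulfate so that it can be broken down (ENSMUSG00000037260, chromosome 8, 25944453 to 25976753). It was at 28.1 to 32.4 CPM, with a median of 29.3 CPM, in tunicamycin libraries, against 38.2, 39.0, 41.6 and 39.9 CPM in DMSO libraries. The groups did not overlap and the spread was small in each. With a log2 fold change of -0.43 ± 0.05 (SE; adjusted p = 6.70e-08, edgeR), it was at 74.4% of the DMSO level, and 2252 tested genes had a lower one. The lanes gave -0.39, -0.55 and -0.40.

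**Figure D2:**
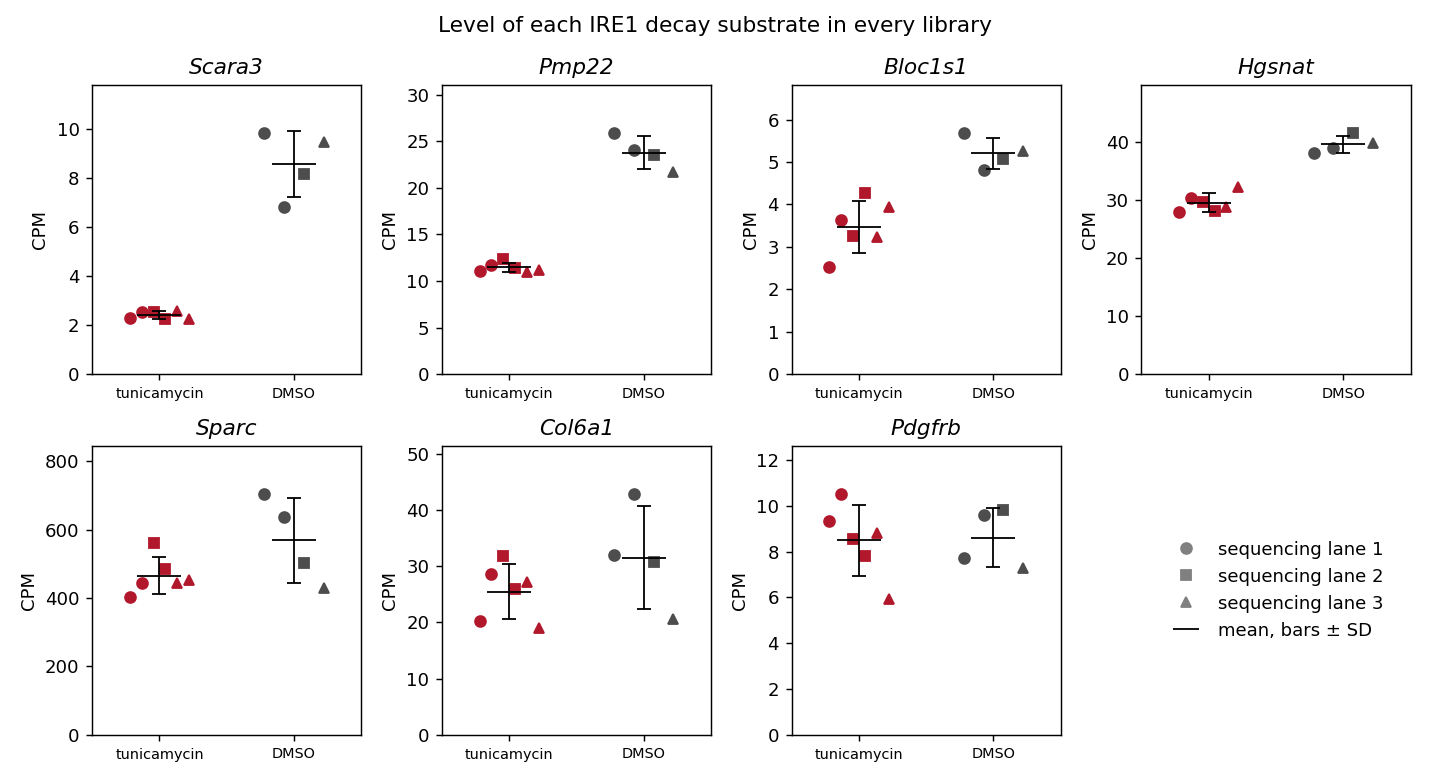
Level of each substrate in CPM in the 6 tunicamycin libraries, left, and the 4 DMSO libraries, right; marker shapes give the sequencing lane, and bars the mean ± SD. Scara3, Pmp22, Bloc1s1 and Hgsnat are lower in every treated library, while the groups overlap for Sparc, Col6a1 and Pdgfrb.

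Sparc encodes a secreted matrix glycoprotein made by astrocytes, microglia and vessel cells, and was by far the most abundant of the 7 (ENSMUSG00000018593, chromosome 11, 55394500 to 55423183). It was at 404 to 562 CPM, with a median of 449.7 CPM, in tunicamycin libraries, against 705, 636, 504 and 431 CPM in DMSO libraries. The DMSO libraries of lane 1 were high and the others lay among the treated ones. The log2 fold change was -0.30 ± 0.14 (SE) and did not pass the test (edgeR adjusted p = 0.103). With 9502 or more counts in every library, counting error was at most 1.03%, while the SD over the DMSO libraries was 21.8% of their mean. Within lane 1 the difference in mean log2 CPM was -0.66, and within lanes 2 and 3 it was 0.03 and 0.04. A test of whether the treatment effect differed between lanes did not pass (edgeR adjusted p = 0.0545), where 0.198% of all genes passed. Without lane 1 the log2 fold change was 0.05 (adjusted p = 0.796), and without DMSO replicate 1 it was -0.18. Without DMSO replicate 4, of lane 3, it was -0.40 and passed (adjusted p = 0.025), and over all 20 alternatives the adjusted p ran from 0.025 to 0.796. Upper-quartile scaling, which shifted the median over all tested genes by -0.11, gave -0.41 (adjusted p = 0.0342).

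Col6a1 encodes a chain of collagen VI, a microfibril of the matrix, and its difference, too, was widest in lane 1 (ENSMUSG00000001119, chromosome 10, 76708792 to 76726168). It was at 18.95 to 31.9 CPM, with a median of 26.6 CPM, in tunicamycin libraries, against 32.0, 42.9, 30.7 and 20.6 CPM in DMSO libraries. The groups overlapped, with DMSO replicates 1 and 2 above every treated library. The log2 fold change of -0.32 ± 0.22 (SE) did not pass (edgeR adjusted p = 0.222). Within lanes 1, 2 and 3 the difference was -0.61, -0.11 and 0.12, and the test of a difference between lanes did not pass (edgeR adjusted p = 0.835). Without DMSO replicate 2, the highest library, the log2 fold change was -0.13, and without lane 1 it was 0.00.

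Pdgfrb encodes the beta receptor for platelet-derived growth factor, which marks mural cells and fibroblasts (ENSMUSG00000024620, chromosome 18, 61045150 to 61085061). It was at 5.92 to 10.5 CPM, with a median of 8.67 CPM, in tunicamycin libraries, against 7.72, 9.58, 9.83 and 7.30 CPM in DMSO libraries. The DMSO values lay wholly inside the treated range. The edgeR fit gave -0.04 ± 0.14 (SE; adjusted p = 0.841) on the log2 scale, with an SE wider than the 0.05 of Hgsnat. Its sign turned with the lane as a term (log2 0.01), and without DMSO replicate 2 (0.02), DMSO replicate 3 (0.04) or tunicamycin replicate 6 (0.05). Within the lanes the difference was 0.21, -0.29 and -0.03.

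**Figure D3:**
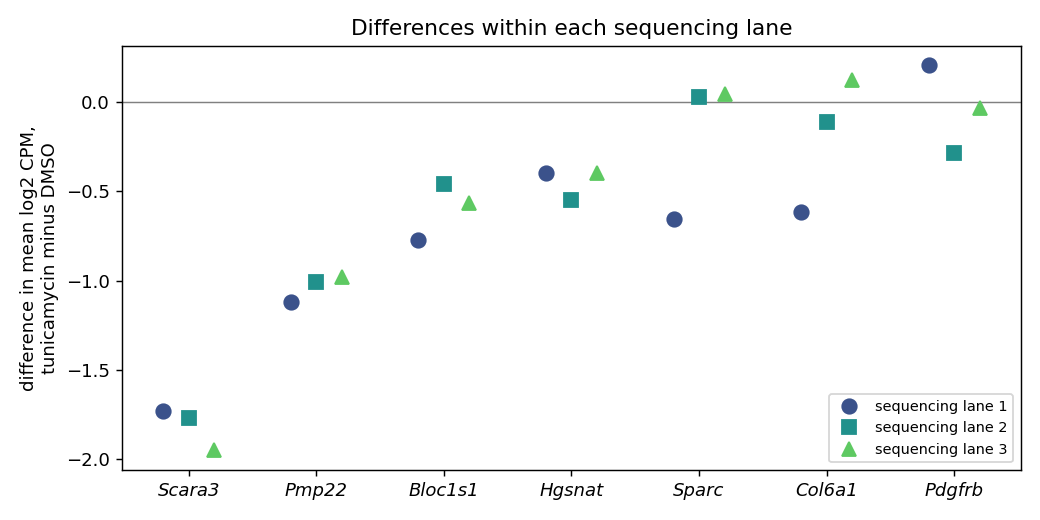
Difference in mean log2 CPM, tunicamycin minus DMSO, of each substrate within sequencing lanes 1 (2 treated and 2 DMSO libraries), 2 and 3 (2 treated and 1 DMSO library each). Scara3, Pmp22, Bloc1s1 and Hgsnat are below 0 in every lane, and Sparc is below 0 in lane 1 alone.

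Levels per kilobase of exonic length allow the 7 genes to be compared with each other. With tunicamycin the order was Sparc (123 ± 14.3 CPM per kilobase, SD, n = 6), Hgsnat (8.96 ± 0.50), Col6a1 (5.82 ± 1.13), Pmp22 (4.87 ± 0.21), Bloc1s1 (2.70 ± 0.48), Pdgfrb (1.55 ± 0.28) and Scara3 (0.67 ± 0.04). With DMSO it was Sparc (150.1 ± 32.8, SD, n = 4), Hgsnat (11.999 ± 0.45), Pmp22 (10.1 ± 0.74), Col6a1 (7.20 ± 2.08), Bloc1s1 (4.04 ± 0.28), Scara3 (2.39 ± 0.38) and Pdgfrb (1.57 ± 0.23). By the length of all exons, neighbours in these orders did not overlap between genes in either group. The exception was Pmp22 and Col6a1, whose libraries overlapped in both. The Bloc1s1 level carries the doubt about shared bases. Scara3 thus lay above Pdgfrb in every DMSO library and below it in every treated one.

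Each substrate was then set against genes that share its complex, pathway, family or cell type, to show whether it moved with them. For each library the mean log2 CPM of the partner genes was subtracted from that of the substrate, and the group means were compared by a two-sided exact permutation test that enumerates all 210 arrangements of the group labels. The smallest p it allows is 0.00952, and p-values were adjusted over the 7 comparisons.

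Bloc1s1 fell relative to the other subunits of its complexes. Of 12 other subunits of BLOC-1 and BORC, 3 rose and 4 fell (median -0.03 on the log2 scale), and all 12 had a higher log2 fold change than Bloc1s1. Bloc1s6, or pallidin, was at 118 ± 0.90 CPM with tunicamycin and 101 ± 1.99 CPM with DMSO (log2 0.22), and Bloc1s4, or cappuccino, at 14.1 ± 1.09 CPM with tunicamycin and 10.1 ± 0.71 CPM with DMSO (log2 0.47), with SD over 6 and 4 libraries. Bloc1s1 relative to these partners was -2.47 ± 0.25 with tunicamycin (SD, n = 6) and -1.87 ± 0.09 with DMSO (SD, n = 4) on the log2 scale, a difference of -0.60 (exact permutation p = 0.00952, adjusted p = 0.0222). All 6 treated libraries were below all 4 DMSO libraries.

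Pmp22 fell relative to its closest relatives as well. Of the epithelial membrane proteins, Emp2 fell (log2 -0.44, 45.8 ± 3.003 CPM with tunicamycin against 61.9 ± 4.98 CPM with DMSO), and Emp1 (log2 0.30, edgeR adjusted p = 0.295) and Emp3 (0.14) did not pass the test. Emp1 was at 0.17 without tunicamycin replicate 3, 0.18 without DMSO replicate 4 and 0.47 without DMSO replicate 1, and at 0.67 without lane 1 and 0.10 without lane 2. Relative to these 3 genes, Pmp22 was at 0.08 ± 0.17 with tunicamycin and 1.15 ± 0.19 with DMSO (SD, n = 6 and 4), a difference of -1.07 on the log2 scale (exact permutation p = 0.00952, adjusted p = 0.0222).

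Scara3 was set against astrocyte markers, all 10 of which fell (median -0.64 on the log2 scale). The glutamate carrier Slc1a3 (log2 -0.83) and the glycolytic enzyme Aldoc (log2 -0.81) had the smallest p in this list, and the largest fall was -1.17. Scara3 fell further than each of the 10. Which cells make Scara3 in these cultures was not tested. Relative to them it was at -5.37 ± 0.11 with tunicamycin and -4.23 ± 0.26 with DMSO (SD, n = 6 and 4), a difference of -1.14 (exact permutation p = 0.00952, adjusted p = 0.0222). The other class A scavenger receptors fell too, in 3 of 3 tested cases (median log2 -1.49), and Scara3 was not tested against them. Scara5 was at 0.37 ± 0.16 CPM with tunicamycin against 1.16 ± 0.35 CPM with DMSO (log2 -1.65) and Msr1, a macrophage receptor, at 0.46 ± 0.21 CPM with tunicamycin against 1.30 ± 0.22 CPM with DMSO (log2 -1.49), and Colec12 fell as well (-0.97), by amounts that differed between lanes (edgeR interaction adjusted p = 0.0212). Msr1 is made by microglia, whose markers fell in 6 of 8 tested cases (median log2 -1.08, sum of 9 genes 11.95 to 14.9 CPM with tunicamycin and 16.7 to 21.3 CPM with DMSO), among them Tyrobp (-1.19) and C1qc (-1.18). Counts were low, at 17 to 68 for Tyrobp and 11 to 44 for C1qc. The most abundant markers of this list, Aif1 (6.17 CPM with tunicamycin against 6.14 CPM with DMSO) and Csf1r (3.10 against 3.33 CPM), did not pass the test. The part of these cells in the Scara3 result was not tested.

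Hgsnat did not pass the test against the other enzymes of heparan sulfate breakdown, several of which fell. Of 7 tested, Gusb, the beta-glucuronidase (log2 -1.04), Ids, the iduronate sulfatase (-0.28), Sgsh (-0.57) and Idua (-0.52) fell. Relative to the 7 genes, Hgsnat was at 0.72 ± 0.09 with tunicamycin and 0.82 ± 0.10 with DMSO (SD, n = 6 and 4), a difference of -0.10 (exact permutation p = 0.133, adjusted p = 0.233). Set against their summed CPM, in which abundant genes weigh more, the difference was -0.22 (exact permutation p = 0.00952, not adjusted). Ids made up most of that sum, at a mean of 540 CPM with tunicamycin and 653 CPM with DMSO. The mean sums over the list were 741 and 851 CPM. Without DMSO replicate 1 the difference from the mean of the partners was -0.14 (exact permutation p = 0.0476, not adjusted). Over the alternatives with a test, p ran from 0.00952 to 0.31.

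Col6a1 was set against Col6a2, a chain of the same collagen. Col6a2 was at 11.8 ± 3.20 CPM with tunicamycin and 14.7 ± 4.87 CPM with DMSO (log2 -0.34, edgeR adjusted p = 0.313). Its log2 fold change was -0.10 without DMSO replicate 2, -0.22 without tunicamycin replicate 6 and -0.04 without lane 1. The log2 ratio of Col6a1 to Col6a2 was 1.13 ± 0.19 with tunicamycin and 1.12 ± 0.06 with DMSO (SD, n = 6 and 4), a difference of 0.01 (exact permutation p = 0.933, adjusted p = 0.962). Of 11 other collagens 2 fell and none rose (median -0.19). Those were Col5a1 (log2 -0.19) and Col18a1 (log2 -0.52), and Col18a1 lost its call in 7 of the 10 fits that leave out a library, and without lane 1 was at -0.08. Fibroblast markers were mixed. Fn1, or fibronectin, rose (168 ± 24.5 CPM with tunicamycin against 70.1 ± 13.1 CPM with DMSO, log2 1.26), Dcn, or decorin, fell (-0.46, with its call lost without lane 3), and the other 4 did not pass the test. Dcn was at -0.30 without DMSO replicate 3, -0.70 without lane 1 and -0.25 without lane 2. The treatment effect differed between lanes for Dcn (edgeR interaction adjusted p = 0.0277) and Col18a1 (0.00348), where 0.198% of all genes passed.

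Sparc did not pass the test against its family. Of 7 tested relatives 5 fell (median -0.24 on the log2 scale). These included Smoc1 (-0.64) and the abundant Sparcl1, or hevin (661 ± 26.9 CPM with tunicamycin against 788 ± 45.4 CPM with DMSO, log2 -0.26). The difference relative to them was 0.01 (exact permutation p = 0.962, adjusted p = 0.962). It was -0.40 within lane 1, 0.32 within lane 2 and 0.35 within lane 3. Endothelial markers, of cells that also make Sparc, summed to 52.6 to 79.1 CPM with tunicamycin and 35.6 to 75.1 CPM with DMSO. Most of the sum was Kdr, at 58.4 ± 9.09 CPM with tunicamycin and 50.6 ± 19.6 CPM with DMSO. Of 4 tested genes Flt1, with 10 to 61 counts, rose (log2 1.19) and the other 3 did not pass. Pecam1 reached at most 0.84 CPM and Cdh5 0.57 CPM in a library, and Tek and Cldn5 did not pass the filter on low counts.

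Pdgfrb was set against mural cell markers, which varied widely. Of 7 tested, Notch3 (log2 -0.42) and Rgs5 (-0.62, with its call lost without lane 2 or lane 3) fell, Myh11, with 4 to 25 counts and groups that overlap, rose (0.77) and 4 did not pass. In DESeq2 Myh11 lost its call (adjusted p = 0.0551), and Acta2 (adjusted p = 0.03) and Tagln (adjusted p = 0.0364) were called lower, so that 4 of 7 fell and none rose. In edgeR neither passed (adjusted p = 0.0654 for Acta2 and 0.0725 for Tagln), and the groups overlapped for both. Tagln shares 67.9% of its exonic bases with other genes. Without lane 1 Rgs5 was at -1.05. Relative to them, Pdgfrb was at 1.42 ± 0.38 with tunicamycin and 1.16 ± 0.34 with DMSO (SD, n = 6 and 4), a difference of 0.26 (exact permutation p = 0.276, adjusted p = 0.387). Of the other PDGF ligands and receptors 5 of 6 fell and none rose. Pdgfa fell (log2 -0.40), with 26.1% of its exonic bases shared with another gene, as did Pdgfb (-0.25). The summed mural markers ran from 108 CPM in DMSO replicate 1 to 41.1 CPM in DMSO replicate 4, and Sparc was highest and lowest among DMSO libraries in the same 2 libraries. Pdgfrb was highest in DMSO replicate 3 (9.83 CPM) and Col6a1 in DMSO replicate 2 (42.9 CPM), and both were lowest in DMSO replicate 4. With DMSO, Acta2 (mean 20.4 CPM) and Tagln (28.1 CPM) made up most of the mean sum of 70.6 CPM. The part of mural cells in the Sparc, Col6a1 and Pdgfrb values was not tested.

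**Figure D4:**
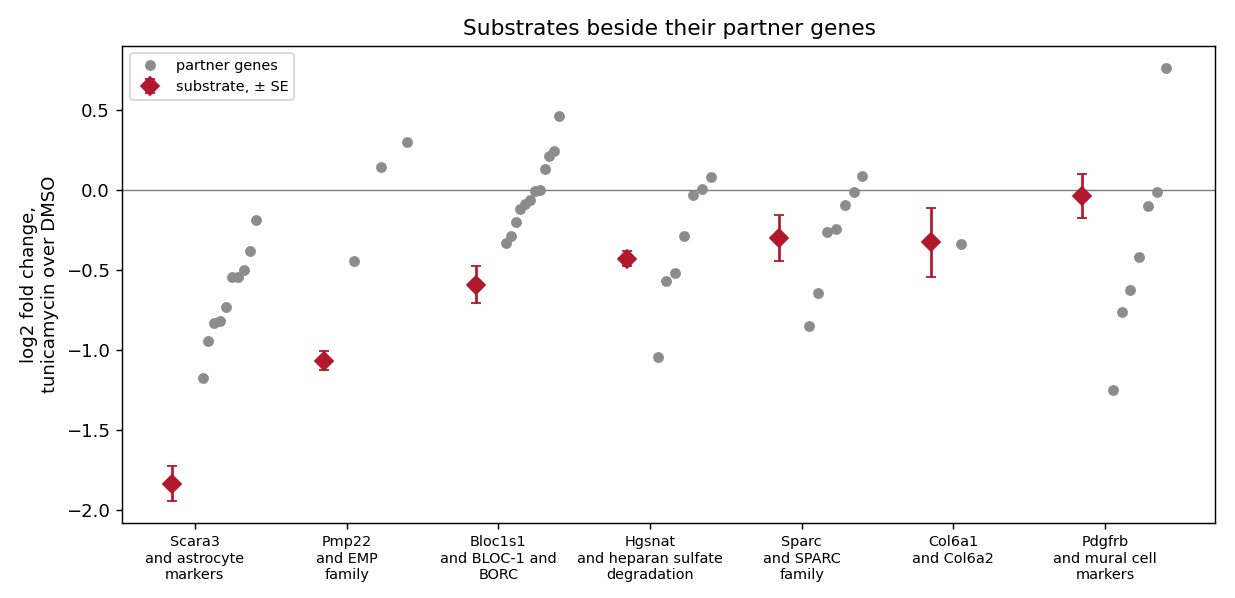
Log2 fold change, tunicamycin over DMSO, of each substrate (diamonds, ± SE) beside its partner genes (grey points). Scara3, set here beside astrocyte markers and not its family, lies below each of its partners, as do Pmp22 and Bloc1s1. The other 4 substrates lie among or level with theirs.

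**Figure D5:**
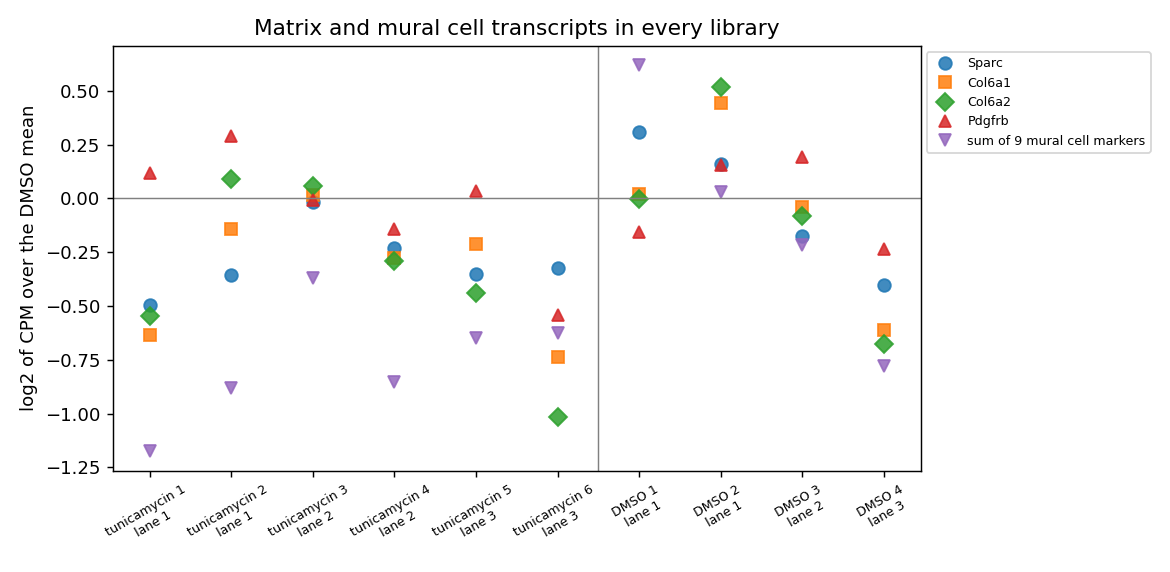
Levels of Sparc, Col6a1, Col6a2, Pdgfrb and the summed mural cell markers in every library, as log2 of CPM over the DMSO mean; the vertical line parts the 6 tunicamycin libraries, left, from the 4 DMSO libraries. Col6a1 and Col6a2 keep close together from library to library, and libraries of the same group differ as much as the groups do.

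Genes around the decay pathway were counted from lists of known members. Of all tested genes, 31.8% were called higher and 32.5% lower. Of 13 tested genes listed around IRE1 10 rose and 2 fell (median 0.59 on the log2 scale). This list includes ER folding genes (Hspa5, Pdia6 and Dnajb9) and genes of the ER protein channel (Sec61a1, Sec61b and Sec63), all of which rose. The others that rose were Ern1, Xbp1, Traf2 (log2 0.27) and Map3k5 (0.47). Besides Hspa5, Xbp1 and Ern1, the disulfide isomerase Pdia6, which attenuates IRE1, rose to 506 ± 17.4 CPM, against 192 ± 8.81 CPM with DMSO (log2 1.38). Tmbim6, or BAX inhibitor 1, which restrains IRE1, fell (-0.29), as did Zbtb8os, or archease (-0.24). Rtcb, the ligase that joins cut Xbp1, had a log2 fold change of 0.03 and did not pass (edgeR adjusted p = 0.538). Of 16 tested genes that remove cut transcripts 11 rose and none fell (median 0.16). The exosome nuclease Dis3 rose (58.0 ± 2.18 CPM with tunicamycin against 33.3 ± 1.47 CPM with DMSO, log2 0.79), and so did the ribosome rescue factor Hbs1l (log2 0.59). Of the 50-base stretches in Hbs1l transcripts, 31.4% also occur in other annotated genes. Xrn1 did not pass (66.3 ± 4.03 CPM with tunicamycin against 66.0 ± 4.16 CPM with DMSO, edgeR adjusted p = 0.979).

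Further transcripts described as substrates elsewhere did not share a direction. Of 8 looked up, 5 were tested. Tapbp, or tapasin, a substrate in mouse dendritic cells, fell (20.2 ± 1.57 CPM with tunicamycin against 30.5 ± 4.91 CPM with DMSO, log2 -0.60 ± 0.09, edgeR adjusted p = 2.13e-05), with 29.0% of its exonic bases shared with other genes. Without lane 1 its log2 fold change was -0.37, and it kept its call. Ergic3, also from dendritic cells, fell by a small amount (log2 -0.10). Per1, a clock gene described as a substrate in human glioma cells, rose (159 ± 8.47 CPM with tunicamycin against 59.6 ± 4.91 CPM with DMSO, log2 1.41 ± 0.05). Itgb2 (log2 -0.08) and Tnfrsf10b (0.06) did not pass. The median of these 5 genes was -0.08.

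Markers of the remaining cell types give the setting of these values. No neuron marker rose and 9 of 10 fell (median -0.19), with the smallest p for Tubb3 (-0.92) and Snap25 (-0.31). Each of 10 proliferation markers fell (median -0.72), with the smallest p for Rrm2 (-1.09) and Mcm3 (-0.89) and a sum of 86.1 to 103 CPM with tunicamycin and 142 to 178 CPM with DMSO. Of 4 tested markers of oligodendrocyte precursors 3 fell (median -0.83), among them Olig1 (-0.88) and Cspg4 (-0.77, with its call lost without lane 2, and -0.49 without DMSO replicate 4). Of 4 tested oligodendrocyte markers Cnp fell (-0.73) and Mog rose (0.46). Pmp22, Scara3 and Hgsnat thus fell in cultures where markers of several cell types fell, and the part of cell makeup in the Pmp22 and Hgsnat results was not tested.

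The genes whose profile over the 10 libraries was most like that of a called substrate were found by the root mean square difference in log2 CPM, centred on the DMSO mean, among 10775 or more named genes of at least 5 CPM. For Scara3 they were Wnt7a, a secreted signalling protein (difference 0.14, log2 fold change -1.75), and Paqr7, a membrane progestin receptor (0.16, -1.66). For Pmp22 they were Brip1os (0.04, -1.07), which shares 20.2% of its exonic bases with other genes, and Rnf145, an ER ubiquitin ligase (0.09, -1.01). For Bloc1s1 they were Them6 (0.12, -0.53), with 18.05% of its exonic bases shared, and Rftn1, a raft protein (0.12, -0.56). For Hgsnat they were Ckmt1, a mitochondrial creatine kinase (0.04, -0.41), and Pde6d, a carrier of lipid-modified proteins (0.04, -0.42). All 8 genes carry a treatment difference like that of their substrate, which enters this measure.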

How the data were processed

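Polyadenylated RNA of 6 tunicamycin and 4 DMSO libraries was sequenced. The authors deposited whole-number counts per Ensembl gene for each library, with no normalization, and tables of genes called higher or lower with log2 fold changes and adjusted p-values. The TruSeq RNA v2 chemistry keeps no strand information, and reads were 50 bp, single-end, per the labels' protocols. Tools are named without roles, per the submitters' processing notes: STAR 2.5.2b, Subread 1.5.1 and featureCounts, DESeq2, FastQC 0.11.5, and the build mm10. The 20 per-library columns of the deposited tables were not used. Names and positions came from GENCODE M21 (GRCm38), which matched 48349 of 48709 identifiers.

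Genes were tested with edgeR 4.0.16 in R 4.3.3 (quasi-likelihood, TMM, filterByExpr, robust) on all 10 libraries and all genes, adjusted by Benjamini-Hochberg over 15660 genes. It was tested on simulated data. The standard error is the log2 fold change over the square root of F. CPM is counts over the library total. Log2 CPM for partner comparisons used TMM and a prior count of 2, with scipy 1.17.1 for exact permutations. Genes were named by rule: the 7 substrates, the 2 tested genes of smallest p per list, Hspa5, Xbp1, Ern1, Col6a2 and 2 genes of like profile per called substrate. Others, such as Sgsh, Idua, Colec12, Emp3, Tmbim6, Zbtb8os, Rtcb, Xrn1, Ergic3, Itgb2, Tnfrsf10b, Myh11, Acta2, Tagln and Rdh5, were added after their values were seen. The substrates and lists were chosen with earlier results of these data known. Alternatives were other scalings, filters and tests, lane or replicate number as a term, and leaving out libraries. Leaving out lanes and the lane interaction were added after seeing the data. Counts of libraries within a group differed beyond sampling noise (chi-square over degrees of freedom 2.17 to 10.3).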

Additional observations from a re-analysis of the deposited data

Results flagged for a closer look

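None of the 7 substrates, and none of the 7 comparisons with partner genes, had a library standing apart from its group by Dixon's criterion. Among 126 groups of libraries tested, 4 had such a library, where chance flags about 1 in 20. Ern1 was highest in tunicamycin replicate 3, at 38.1 CPM, against 32.8 to 34.0 CPM in the other 5. Brip1os was highest in the same library, at 10.9 CPM, against 9.25 to 9.57 CPM. Gusb was highest in tunicamycin replicate 5, at 4.95 CPM, against 4.17 to 4.43 CPM. Mcm3 was highest in DMSO replicate 1, at 12.1 CPM, against 10.1 to 10.4 CPM.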

How the results depend on the processing

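The falls of Scara3, Pmp22, Bloc1s1 and Hgsnat kept their direction and their call under all 20 alternatives, with log2 fold changes of -1.95 to -1.76, -1.18 to -0.99, -0.71 to -0.51 and -0.54 to -0.38. Leaving out 1 library at a time gave 4796 to 4963 genes higher and 4726 to 4997 lower. It gave -0.11 to 0.055 for Pdgfrb, -0.47 to -0.13 for Col6a1 and -0.40 to -0.18 for Sparc. Relative to partners it gave -0.14 to -0.066 for Hgsnat, -0.038 to 0.063 for Col6a1, -0.12 to 0.11 for Sparc and 0.10 to 0.38 for Pdgfrb. Pdgfrb turned positive with lane as a term (0.0057), in the replicate block (0.064) and without lane 2 (0.058). Without lane 1, Col6a1 (0.0040) and Sparc (0.046) turned, and Sparc passed under upper-quartile scaling (-0.41), under which 3632 genes were higher and 6934 lower, against 4983 and 5082. Hgsnat against the summed CPM of its partners, most of it from Ids, gave -0.22 (exact permutation p = 0.00952, not adjusted). Within lanes, the difference from partners moved by more than the spread for Hgsnat in lane 2 (-0.22), Col6a1 in lanes 1 (-0.13) and 3 (0.19), Sparc in lanes 1 to 3 (-0.40, 0.32 and 0.35) and Pdgfrb in lanes 1 to 3 (0.91, -0.12 and -0.25). The cause was not tested. A stem of at least 5 base pairs left 1 substrate with a closed loop. Libraries of both groups share replicate numbers 1 to 4, and deviations of same-numbered libraries correlated at -0.22 to 0.01 across genes. No pairing by number was seen, and whether same-numbered libraries share a culture is not stated. The replicate block called 8847 genes, against 10065. The lowest counts were 47 for Scara3 and 60 for Bloc1s1, with counting errors of up to 14.6% and 12.9%.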
